A study of Mus musculus with 6 samples.

Results

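The genes described here encode 10 RNA-binding proteins that neurons use to splice, stabilise, transport and translate their messages: Elavl2, Elavl3, Elavl4, Rbfox1, Rbfox2, Rbfox3, Nova1, Nova2, Celf4 and Fmr1. They were taken by gene symbol from the count files, which list 32531 genes, and all 10 were found and all 10 passed the filter on low counts that left 16991 genes for testing. The libraries come from the hypothalamus of untreated control mice of the line Lhx5-TRAP DT154. By its name, it is a TRAP line with an Lhx5 driver. TRAP lines of this kind express EGFP-tagged Rpl10a, a protein of the large ribosomal subunit. Tagged ribosomes are thus taken to mark the cells in which the driver is active, and every animal in both groups carries the transgene. The IP group (3 libraries) is RNA from polysomes pulled down with anti-EGFP antibodies. The unbound group (3 libraries) is labelled unbound by sample type and input by title, and the labels do not settle which it is. No label gives the age of the mice. No label says whether a library is from 1 animal or a pool, nor that replicates are separate animals, so p-values measure the spread between these libraries.

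Elavl2, Elavl3 and Elavl4, also called HuB, HuC and HuD, bind U-rich stretches of mRNA and are known for stabilising and splicing messages as neurons mature. The Rbfox proteins bind the same short RNA element beside alternative exons. Rbfox3 is the NeuN antigen used to mark neuronal nuclei, while Rbfox2 is also made outside the nervous system. Nova1 and Nova2 control exons of synaptic proteins. Celf4 binds the messages of many synaptic and excitability genes, and Fmr1 encodes FMRP, a polysome-associated protein known as a brake on translation and lost in fragile X syndrome. RNA of such genes in a pull-down is taken to report ribosomes loaded in the tagged cells, though RNA of other cells may be carried along. Bulk libraries cannot tell fewer cells of a type from less RNA per cell. A fold change of IP over unbound cannot tell either of these from a smaller part of the RNA on ribosomes.

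Gene counts ran from 32471045 to 46293837 in IP and from 32926146 to 40768577 in unbound libraries. Levels below are CPM (gene counts scaled to a common library total) with TMM scaling factors, which assumes that most genes do not differ. The driver gene Lhx5 averaged 61.7 ± 7.59 CPM in the IP libraries, against 3.39 ± 2.51 CPM in the unbound libraries (mean ± SD, n = 3 each), a log2 fold change of 4.18. The 20 pan-neuronal markers summed to 28485 to 30176 CPM in IP and 18721 to 19983 CPM in unbound libraries. Astrocyte markers (11 genes) summed to 523 to 797 CPM in IP and 2037 to 2255 CPM in unbound, and oligodendrocyte lineage markers (13 genes) to 343 to 579 CPM in IP and 3660 to 7004 CPM in unbound. Microglia markers (10 genes) summed to 5.62 to 16.7 CPM in IP and 72.5 to 111 CPM in unbound, and vascular markers (9 genes) to 4.47 to 9.29 CPM in IP and 26.5 to 50.4 CPM in unbound. No marker was at 0 in all IP libraries, and the part of these cell types in the results below was not tested. Unbound replicate 3 stood apart from the other unbound libraries for many of the genes below and had the highest oligodendrocyte lineage sum, 7004 CPM, against 3660 and 3853 CPM in the others. Its part in the results was not tested, and results are given without it where that changes a call.

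Of the 10 genes, 5 rose in IP (Nova1, Elavl2, Elavl4, Celf4 and Rbfox2) and 1 fell (Fmr1), while Elavl3, Rbfox1, Rbfox3 and Nova2 did not pass edgeR's quasi-likelihood test at a Benjamini-Hochberg (BH) adjusted p of 0.05. Over all tested genes 21.1% were called higher and 23.2% lower, or 44.3% in either direction. The median log2 fold change of the 10 genes was 0.47, against -0.01 over all genes tested and 0.63 over the 20 pan-neuronal markers. Only Nova1, Elavl2 and Elavl4 lay above that pan-neuronal median. The markers are shorter, with a median exon length of 4.67 kb against 8.23 kb for the 10 genes. The part of length in this difference was not tested. Every IP library was above every unbound library for 6 of the genes and below for 1, against 27.1% and 28.7% of all genes tested (55.9% in either direction).

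The count of calls moved with the libraries used. Without unbound replicate 3, 6 of the 10 genes were higher and 2 lower, where 24% of all genes were higher and 25.8% lower (49.8% in all). With the replicate number as a block, 6 were higher and 1 lower, where 23.3% of all genes were higher and 23.6% lower (46.9% in all). With the lane 2 libraries alone (2 per group), 2 were higher and 1 lower, where 7.49% of all genes were higher and 14.7% lower (22.1% in all). That fit kept Nova1, Elavl2 and Fmr1 and lost Elavl4 (0.72), Celf4 (0.61) and Rbfox2 (0.37). With all libraries and lane as a covariate, 5 were higher and 1 lower. There 19.6% of all genes were higher and 22.1% lower (41.7% in all). Elavl4 (0.79), Celf4 (0.60) and Rbfox2 (0.42) stayed called in it.

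These directions depended on the scaling. When libraries were scaled so that the pan-neuronal markers matched, the median of all genes moved by -0.65 on the log2 scale, and 561 genes (3.3%) were called higher and 8279 (48.7%) lower, 52% in all. Higher calls made up 6.35% of all calls there, against 47.6% with TMM scaling. Of the 10 genes 0 were then higher and 2, Fmr1 and Rbfox1, were lower. Under that scaling the log2 fold change was 0.55 for Nova1, 0.24 for Elavl2, 0.15 for Elavl4, -0.05 for Celf4 and -0.22 for Rbfox2, none of which passed (adjusted p 0.0702 to 0.828 in edgeR). Rises below are thus relative to the bulk of genes, and none of the 10 genes was called higher relative to the pan-neuronal markers.

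**Figure D1:**
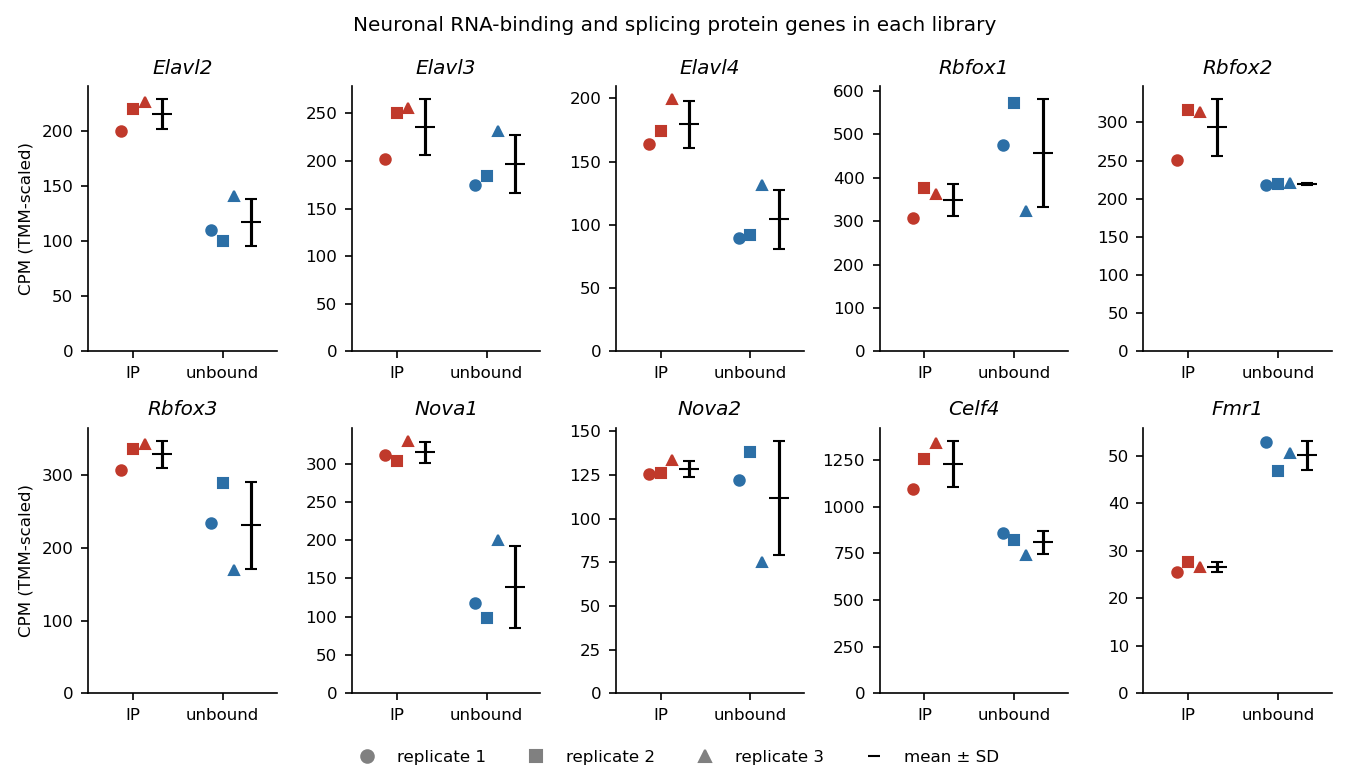
CPM after TMM scaling (y axis) of the 10 genes in each IP (red) and unbound (blue) library, with symbols for the replicate and black bars for mean ± SD (n = 3). Nova1, Elavl2, Elavl4 and Celf4 lie higher in all IP libraries and Fmr1 lower. Unbound replicate 3 is the highest or lowest unbound library for 9 of the 10 genes, though nearly equal to the others for Rbfox2.

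Nova1 had the largest rise of the 10. The gene spans chromosome 12 from 46694517 to 46818929 on the minus strand (mm10, GENCODE M21, as for all positions here). It stood at 311, 303 and 329.9 CPM in IP replicates 1 to 3, against 118, 98.4 and 199.8 CPM in unbound replicates 1 to 3. The groups did not overlap, and the IP libraries lay within a narrow band while unbound replicate 3 was 1.84 times the mean of the other unbound libraries. This was a 2.27-fold rise, or 1.18 ± 0.25 (SE) on the log2 scale (edgeR quasi-likelihood, BH-adjusted p = 0.00511). Without unbound replicate 3 it was 1.53.

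Nova2, its paralog on chromosome 7 (18925888 to 18965319, plus strand), did not pass the test. It stood at 126, 126 and 133 CPM in IP, against 122, 138 and 75.2 CPM in unbound libraries. The IP values lay between the unbound ones, with unbound replicate 3 the lowest of all 6 libraries. The log2 fold change of 0.20 had a 95% confidence interval from -0.28 to 0.67 (edgeR quasi-likelihood, BH-adjusted p = 0.468). Leaving out unbound replicate 3 gave -0.03. An annotated antisense noncoding gene, Gm26821, covers 31.7% of its exon bases, and without a stated strand setting reads of the pair cannot be told apart.

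The makeup of the Nova pair within a library does not depend on scaling between libraries. The antisense overlap at Nova2 enters it, however, and ambiguous reads were 1.58% to 1.64% of all reads in IP and 7.08% to 9.02% in unbound libraries. The part of read assignment in this makeup was not tested. Taken as counts per kb of annotated exon, Nova1 made up 70.3%, 69.8% and 70.3% of the pair in IP libraries, against 48.1%, 40.6% and 71.8% in unbound libraries. Unbound replicate 3 thus lay close to the IP libraries, and the other unbound libraries were more evenly split. The difference of 16.7 percentage points rested on unbound replicates 1 and 2 (25.8 points without unbound replicate 3, 10.2 without unbound replicate 2) and had p = 0.4 in an exact two-sided permutation test, whose smallest possible p with 3 against 3 is 0.1.

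Among the neuronal Elavl genes, Elavl2 and Elavl4 rose. Elavl2, on chromosome 4 from 91250763 to 91400785 (minus strand), had 199, 219 and 226 CPM in IP libraries, against 109.8, 99.9 and 141 CPM in unbound libraries. All IP libraries were above all unbound ones, and the log2 fold change was 0.88 ± 0.16 (SE), or 1.84-fold (edgeR quasi-likelihood, BH-adjusted p = 0.00262). With each library left out in turn, Elavl2 stayed called at 0.78 to 1.03.

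Elavl4 lies on the same chromosome (110203722 to 110351909, minus strand). Its levels were 164, 174 and 199.9 CPM in IP libraries and 89.4, 92.1 and 132 CPM in unbound libraries. The groups were again separate, with unbound replicate 3 nearest to IP. Elavl4 rose 1.72-fold, by 0.78 ± 0.18 (SE) on the log2 scale (edgeR quasi-likelihood, BH-adjusted p = 0.00763), and leaving out each library gave 0.71 to 0.98.

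Elavl3, on chromosome 9 from 22015005 to 22052023 (minus strand), stood at 202, 250.5 and 255 CPM in IP, against 174, 184 and 231 CPM in unbound libraries. Unbound replicate 3 was above IP replicate 1, so the groups overlapped. The log2 fold change was 0.26, with a 95% confidence interval from -0.10 to 0.63 (edgeR quasi-likelihood, BH-adjusted p = 0.214). Without unbound replicate 3 it passed, at 0.39 (adjusted p = 0.0475, edgeR).

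Within the neuronal Elavl trio the makeup shifted away from Elavl3 by a margin larger than the spread between libraries. Per kb of exon, Elavl3 made up 34.99%, 38.2% and 36.5% of the trio in IP libraries, against 45.9%, 47.8% and 44.8% in unbound libraries. Elavl2 took 27.7% ± 0.90 in IP and 22.7% ± 1.21 in unbound libraries, and Elavl4 took 35.7% ± 1.43 in IP and 31.1% ± 1.30 in unbound libraries (SD, n = 3 each). For all 3 genes the groups did not overlap, unbound replicate 3 included. Each had p = 0.1 in the exact two-sided permutation test, the smallest that 3 against 3 allows.

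**Figure D2:**
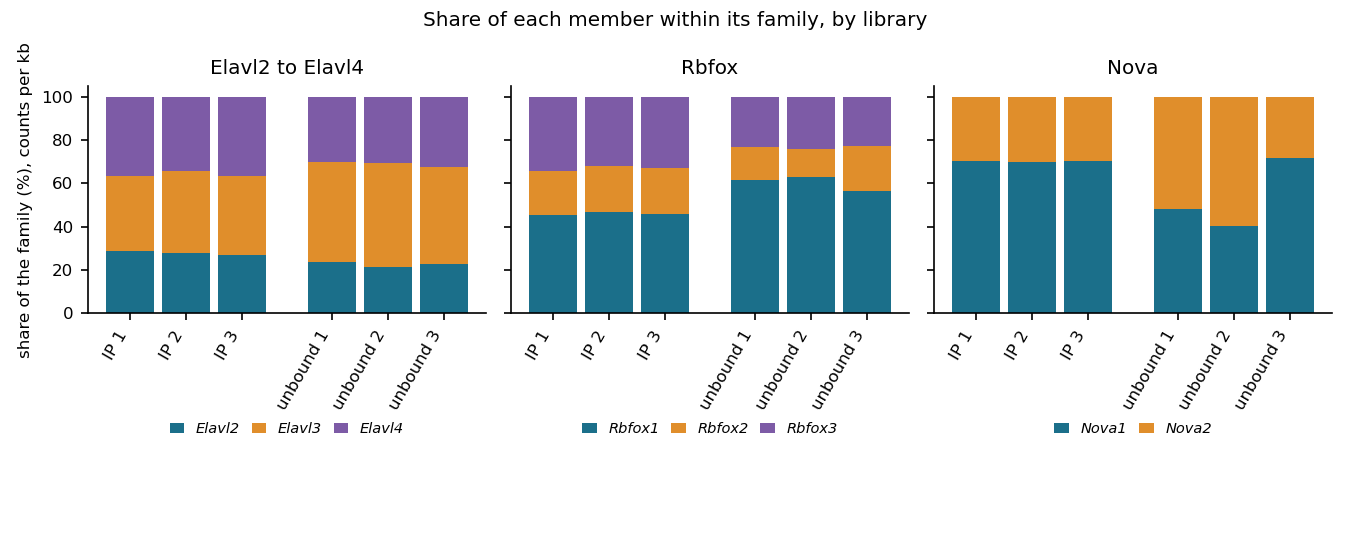
Share (y axis, %) of each gene within its family in each library (x axis), from counts per kb of annotated exon, with IP libraries left of unbound ones. Elavl3 and Rbfox1 take a smaller share in all IP libraries, and the Nova makeup of unbound replicate 3 (71.8% Nova1) lies close to that of the IP libraries.

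Among the Rbfox genes only Rbfox2 passed the test with all libraries. It lies on chromosome 15 from 77078990 to 77307004 (minus strand) and had 250.1, 317 and 314 CPM in IP libraries, against 217, 219 and 220.0 CPM in unbound libraries. The unbound libraries were nearly equal and all below IP. Rbfox2 rose 1.34-fold, by 0.42 ± 0.14 (SE) on the log2 scale (edgeR quasi-likelihood, BH-adjusted p = 0.0347). This call was the least stable of the 6. It was lost without IP replicate 2 (0.38), IP replicate 3 (0.40), unbound replicate 1 (0.46) or unbound replicate 2 (0.43), with library size alone (0.33) and with the GC trend removed (0.36). With the GC trend removed and the replicate number as a block it passed, at 0.35 (adjusted p = 0.0473 in edgeR).

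Rbfox3, on chromosome 11 from 118489762 to 118911597 (minus strand), stood at 308, 336 and 343 CPM in IP, against 234, 289.6 and 170.1 CPM in unbound libraries. All IP libraries were above all unbound ones, but the unbound values were spread widely. The log2 fold change of 0.51 (95% confidence interval 0.07 to 0.94) did not pass (edgeR quasi-likelihood, BH-adjusted p = 0.0584). With the replicate number as a block it did, at 0.54 (adjusted p = 0.0409 in edgeR), as it did without unbound replicate 2 (0.71). Rbfox3 also passed narrowly in limma-voom (0.54, adjusted p = 0.0434) and with no filter on low counts (0.54, adjusted p = 0.0497 in edgeR). With the GC trend removed it was 0.30 (adjusted p = 0.246 in edgeR), and with the block as well 0.34 (adjusted p = 0.186 in edgeR), not passed. Without unbound replicate 3, its lowest library, it was 0.32 and did not pass.

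Rbfox1, on chromosome 16 from 5885355 to 7411526 (plus strand), had a fold change of the other sign. It stood at 308, 376 and 363 CPM in IP, against 475, 572 and 323 CPM in unbound libraries. The groups overlapped only through unbound replicate 3, which lay below IP replicates 2 and 3. With all 6 libraries the log2 fold change was -0.39 (95% confidence interval -0.86 to 0.08, edgeR quasi-likelihood, BH-adjusted p = 0.158). Without unbound replicate 3 it was called lower, at -0.59 (adjusted p = 0.00790, edgeR), and pan-neuronal scaling also gave a call, at -1.05.

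In the makeup of the Rbfox trio, Rbfox1 took less and Rbfox3 more in every IP library. Per kb of exon, Rbfox1 made up 45.5%, 46.9% and 45.8% in IP libraries, against 61.7%, 62.9% and 56.6% in unbound libraries. Rbfox3 made up 34.4%, 31.7% and 32.7% in IP libraries, against 23.0%, 24.1% and 22.5% in unbound libraries. Neither pair of groups overlapped, and each had p = 0.1 in the exact two-sided permutation test, the smallest possible. Rbfox2 took 20.9% ± 0.80 in IP and 16.4% ± 4.02 in unbound (SD, n = 3 each), with overlapping groups (exact permutation p = 0.2).

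Celf4, on chromosome 18 from 25477632 to 25754157 (minus strand), had the highest level per length of the 10 in IP. Its levels were 1095, 1254 and 1340.3 CPM in IP libraries, against 861, 824 and 741 CPM in unbound libraries. The groups did not overlap. Celf4 rose 1.52-fold, by 0.60 ± 0.14 (SE) on the log2 scale (edgeR quasi-likelihood, BH-adjusted p = 0.00808), and leaving out each library gave 0.54 to 0.70, all called.

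Fmr1, on chromosome X from 68678541 to 68717963 (plus strand), was the gene that fell and had the lowest level per length of the set. It stood at 25.6, 27.8 and 26.7 CPM in IP, against 52.9, 46.8 and 50.7 CPM in unbound libraries. Every IP library was below every unbound library, and replicates of each group lay close together, unbound replicate 3 included. The log2 fold change was -0.91 ± 0.13 (SE), 1.88-fold lower in IP (edgeR quasi-likelihood, BH-adjusted p = 7.98e-04). Fmr1 was called lower in all 18 alternative fits, at -0.81 with the GC trend removed and -1.56 with pan-neuronal scaling.

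**Figure D3:**
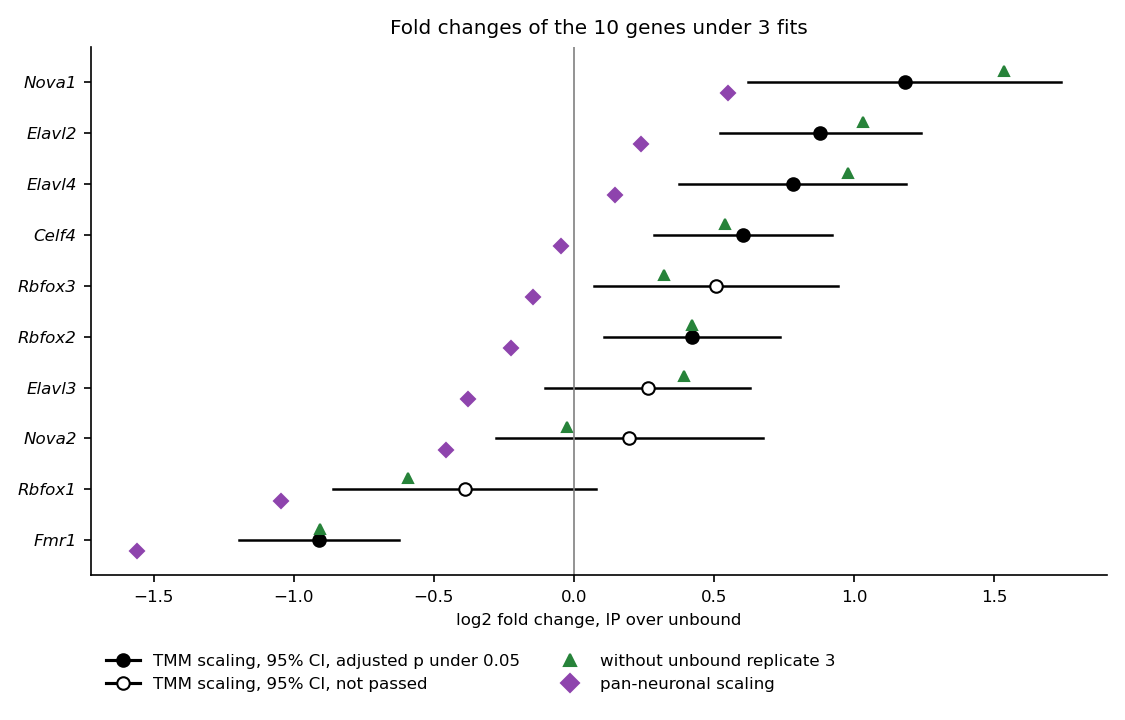
Log2 fold change of IP over unbound (x axis) for the 10 genes, with 95% confidence intervals (black, filled where the adjusted p was under 0.05), the value without unbound replicate 3 (green triangles) and with pan-neuronal scaling (purple diamonds). Nova1 at 1.18 and Fmr1 at -0.91 mark the ends, and pan-neuronal scaling moves all values to the left by a similar amount.

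Levels can be compared between genes only per length. In CPM per kb of annotated exon, Celf4 led in IP at 143 ± 14.5, followed by Rbfox1 at 79.3 ± 8.21 and Rbfox3 at 56.5 ± 3.20 (SD, n = 3). Rbfox2, Nova1, Elavl3 and Elavl4 came next, at 36.1, 36.0, 34.2 and 33.3 CPM per kb, with overlapping libraries. Below them came Elavl2 at 25.9 ± 1.67, Nova2 at 15.3 ± 0.54 and Fmr1 at 2.98 ± 0.12 CPM per kb. In unbound RNA, Rbfox1 (104 ± 28.5) and Celf4 (94.3 ± 7.15) overlapped at the top, and Fmr1 was again last at 5.59 ± 0.34 CPM per kb.

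Part of the order rests on which transcripts set the length. With exon lengths from the basic transcript set, an alternative chosen after the data were seen, Elavl2 moved to the fourth place in IP at 45.2 CPM per kb, and Celf4 led in both groups. In IP Elavl3 moved to the eighth place and Rbfox2 to the sixth, and the other 7 genes kept theirs.

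Spread between replicates was wider in unbound than in IP for 8 of the 10 genes. The coefficient of variation ran from 3.53% to 12.8% in IP and from 0.602% to 38.7% in unbound libraries. Unbound replicate 3 was the highest unbound library for 5 genes and the lowest for 4. Relative to the mean of the other unbound libraries it was at 1.84 for Nova1, 1.45 for Elavl4, 1.34 for Elavl2 and 1.29 for Elavl3, but at 0.58 for Nova2, 0.62 for Rbfox1 and 0.65 for Rbfox3. Fmr1 and Rbfox2 stood at 1.02 and 1.01. The share of all genes with a wider unbound spread, or with unbound replicate 3 highest or lowest, is not given here. These numbers of genes are thus not read as particular to the set. Counts of the 10 genes ran from 864 to 60322 per library, so counting error was at most 3.40%.

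Of 8 paralogs of the same families that are outside the set, 2 rose, Celf6 and Fxr2, and 0 fell, with 6 not called, against 21.1% of all genes called higher and 23.2% lower. The count of rises is near that background, and the list median was 0.10. Celf6 stood at 70.2, 81.7 and 93.5 CPM in IP libraries, against 25.1, 18.4 and 22.01 CPM in unbound libraries. Its log2 fold change of 1.90 ± 0.17 (SE), or 3.74-fold, was above that of any of the 10 genes (edgeR quasi-likelihood, BH-adjusted p = 1.44e-04). It was also the single paralog called higher with pan-neuronal scaling, at 1.26.

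Fxr2, an autosomal relative of Fmr1, had 37.0, 39.1 and 48.3 CPM in IP libraries and 21.5, 24.2 and 29.1 CPM in unbound libraries. It rose by 0.73 ± 0.17 (SE) on the log2 scale (edgeR quasi-likelihood, BH-adjusted p = 0.00789). With pan-neuronal scaling its value was 0.10 and it was not called, and with the lane 2 libraries alone it was 0.76 and not called. Fxr1 averaged 94.6 ± 12.03 CPM over the IP libraries and 87.7 ± 11.5 CPM over the unbound ones (SD, n = 3 each), a log2 fold change of 0.11 with a 95% confidence interval from -0.24 to 0.46 and not called. With pan-neuronal scaling Fxr1 was called lower, at -0.53. Fmr1 and Fxr2 thus passed in opposite directions in the same fit.

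Elavl1, the widely expressed HuR, averaged 146 ± 18.8 CPM over the IP libraries and 137 ± 2.28 CPM over the unbound ones (SD, n = 3 each), a log2 fold change of 0.09 with an interval from -0.22 to 0.40. It was called lower, at -0.56, with pan-neuronal scaling.

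The other Celf paralogs were those most marked by unbound replicate 3. Celf5 stood at 130.2, 146 and 131 CPM in IP, against 219, 213 and 54.7 CPM in unbound libraries. Celf2 stood at 338, 402 and 386 CPM in IP, against 791, 839.6 and 297 CPM in unbound libraries. For both genes that library was below every IP library and the other unbound libraries were above. Celf1 and Celf3 showed the same low library, at 0.455 and 0.37 of the mean of the other unbound libraries. With it, none of Celf1 (-0.48), Celf2 (-0.78), Celf3 (0.19) and Celf5 (-0.26) was called in the main fit. Other fits with all libraries called Celf2 lower in DESeq2 (-0.82, adjusted p = 0.0320), and Celf1 (-1.14) and Celf2 (-1.44) lower with pan-neuronal scaling. Without unbound replicate 3, Celf1 (-0.77), Celf2 (-1.13) and Celf5 (-0.68) were called lower. In that fit 5 of the 8 paralogs were called in all, against 49.8% of all genes. An antisense gene, Gm16105, covers 8.14% of Celf5 exon bases and a noncoding antisense gene, Gm26565, 7.58% of those of Celf2.

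**Figure D4:**
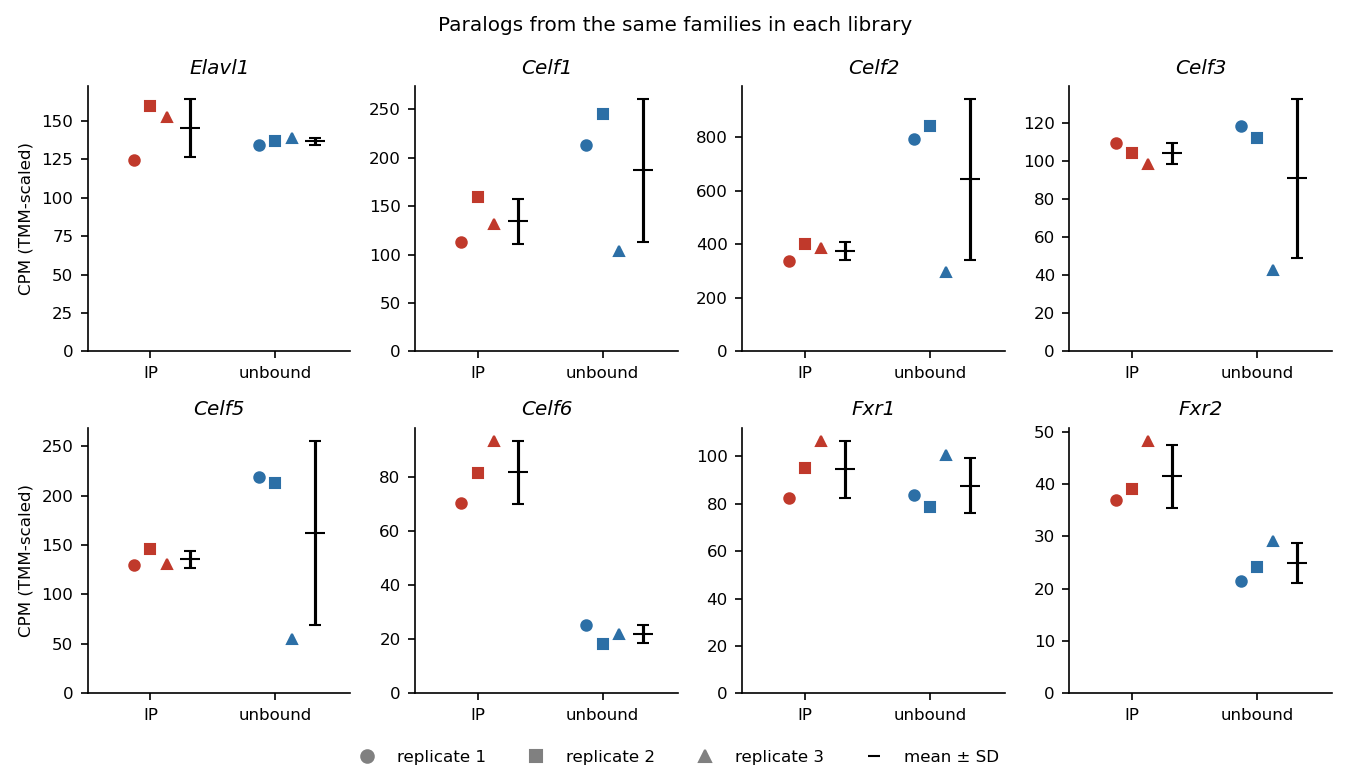
CPM after TMM scaling (y axis) of 8 family paralogs in each IP (red) and unbound (blue) library, with symbols for the replicate and black bars for mean ± SD (n = 3). Celf6 and Fxr2 lie higher in all IP libraries, while unbound replicate 3 falls far below the other unbound libraries for Celf1, Celf2, Celf3 and Celf5.

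Other splicing factors with tissue-regulated expression gave 1 rise and 4 falls among 16 tested of 18 listed, with a median of 0.06. The falls are near the 23.2% of all genes called lower, and the rises below the 21.1% called higher. Qk, the quaking protein, which is abundant in glia, averaged 73.5 ± 25.1 CPM over the IP libraries and 779 ± 180 CPM over the unbound ones (SD, n = 3 each), 10.6-fold lower in IP (log2 -3.41). Ptbp3 fell by 1.16 and Raver2, a partner of the PTB proteins, fell by 1.26 on the log2 scale. Khdrbs1 (Sam68) rose by 0.66, a call lost without IP replicate 2 (0.58). In the same libraries 10 of 11 astrocyte, 13 of 13 oligodendrocyte lineage, 10 of 10 microglia and 6 of 8 tested vascular markers fell. The part of these cell types in the value of Qk was not tested.

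Among 30 SR and hnRNP proteins, the general splicing proteins of all cells, 3 rose and 5 fell, and the median was 0.03. These 8 calls are a smaller share than the 44.3% of all genes. Blocking on replicate number gave 6 rises and 5 falls, against 23.3% of all genes higher and 23.6% lower. Srsf12 (0.87), Srsf5 (0.66) and Hnrnpab (0.53) rose, and Srsf11 (-0.997), Syncrip (-0.82) and Hnrnpu (-0.63) had the smallest adjusted p of the falls. Srsf11 averaged 107 ± 3.31 CPM over the IP libraries and 213 ± 8.70 CPM over the unbound ones (SD, n = 3 each). With pan-neuronal scaling 0 rose and 21 fell, against 3.3% and 48.7% of all genes.

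Of 24 tested genes for mRNA transport and translational control, 4 rose and 7 fell, with a median of -0.16. The 11 calls are near the 44.3% of all genes. G3bp2, a stress granule protein, rose by 0.80, Nufip1, a protein that binds FMRP, by 0.68, and Pura by 0.55 on the log2 scale. Pura lost its call without IP replicate 2 (0.53) or unbound replicate 1 (0.50). Ybx1 fell by 1.67, Pabpc1, the cytoplasmic poly(A)-binding protein, fell by 1.15, and Purb fell by 1.08. Ybx1 and Pabpc1 have processed pseudogenes, and reads that aligned to several places were not counted, so their levels are uncertain. Without IP replicate 2 the list had 6 calls in place of 11, where 35.6% of all genes were called in place of 44.3%.

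The last list held 24 mRNAs that studies of mouse brain reported as bound by FMRP, all tested. Of these 3 rose and 9 fell, against 21.1% and 23.2% of all genes, and their median was -0.52. Pclo, a very large protein of the presynaptic active zone, averaged 129 ± 11.2 CPM over the IP libraries and 438 ± 52.0 CPM over the unbound ones (SD, n = 3 each), a log2 fold change of -1.76. Ank2 (-0.90) and Shank3 (-0.94) fell too. Nlgn2 (0.79), Dlg4 (0.48) and Nlgn3 (0.63) rose, but Nlgn3 had overlapping groups and stayed called in the fit without IP replicate 3 alone among those that left out a library (0.47 to 0.73 in the others). Dlg4 lost its call without any 1 of the IP replicates or unbound replicate 1 (0.46 to 0.54). Without IP replicate 1 the list had 7 calls in place of 12, where 34.3% of all genes were called in place of 44.3%.

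The median exon length was 13.1 kb in the FMRP list, 8.23 kb in the 10 genes and 4.67 kb in the 20 pan-neuronal markers. It was 4.37 kb over the 15407 tested genes with an annotation. Over those genes the median log2 fold change was 0.35 for exon lengths up to 2 kb, 0.03 from 4 to 6 kb, -0.12 from 8 to 12 kb and -0.34 above 12 kb. The part of length in the results was not tested.

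**Figure D5:**
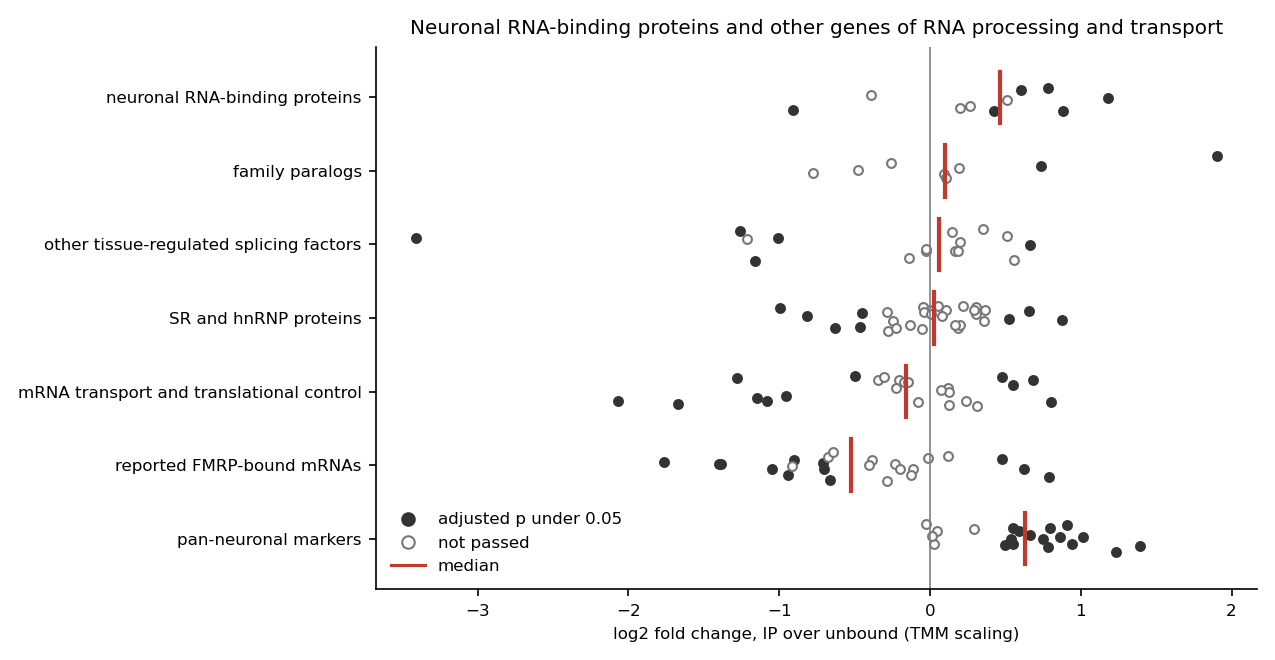
Log2 fold change of IP over unbound (x axis) of each tested gene in 7 lists (rows), filled where the adjusted p was under 0.05, with the list median in red. The 10 neuronal RNA-binding proteins and the pan-neuronal markers have medians of 0.47 and 0.63, the reported FMRP-bound mRNAs a median of -0.52, and Qk lies farthest to the left at -3.41.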

How the data were processed

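The deposited files hold raw read counts per gene symbol, 1 file per library. Reads were aligned with STAR 2.0.0e and counted with HTSeq on mm10, per the submitters' processing notes. The sources used here do not give the annotation, strand setting or overlap handling. Library sizes and tests leave out the 5 HTSeq summary lines and a line named unknown. Ambiguous reads were 1.58% to 1.64% of all reads in IP and 7.08% to 9.02% in unbound libraries, and reads aligned to several places 43.8% to 45.0% and 31.8% to 32.9%.

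The test was that of edgeR 4.0.16 (R 4.3.3): TMM scaling, filterByExpr defaults (minimum count 10, minimum total 15), a robust quasi-likelihood fit with group as the single term, and p-values adjusted over all 16991 genes by Benjamini-Hochberg with a threshold of 0.05. The SE was taken from the fold change and its F statistic. Family shares were compared by exact permutation (scipy 1.17.1). Positions, exon lengths and GC content come from GENCODE M21 (GRCm38), which matched 23883 of 32531 features. The closing section counts 18 alternative fits together and names only some of them. The 18 include DESeq2 1.42.0, limma-voom (limma 3.58.1), median-ratio size factors, other filters and lane as a covariate. In a simulation of IP against unbound over 16710 genes, 35% of 100 true 2-fold changes and 91% of 100 true 4-fold changes were called, and 12 of 138 calls were false. No other genes were changed in it, whereas 44.3% of all genes were called in the data. Its rates of recovered and false calls thus cannot be carried over to the fit of these data.

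The members, lists and tests were chosen with earlier results of these data known. Named are the 10 genes, their family paralogs, Lhx5 and, of each other list, up to 3 called genes per direction with the smallest adjusted p. Replicate numbers are shared between the groups and lane follows them (lane 4 for replicate 2, lane 2 for the rest). After the group means were removed, the IP and unbound libraries that share a number had correlations of 0.14, 0.16 and 0.21 over genes. Only the alternative fits with the replicate block took the shared numbers as pairs. No label states that pairing. The main fit and the permutation tests of family shares did not use it and treated the libraries as unpaired. Replicates differed by more than counting noise (chi-square per degree of freedom 23.0 to 136), so none was counted as a copy.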

Additional observations from a re-analysis of the deposited data

How the results depend on the processing

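Of 180 values of the 10 genes over 18 alternative fits, 155 kept direction and side of the threshold. With the sign kept, 12 lost a call and 7 gained one, and 6 changed sign. Among the sign changes, those of Celf4 and Rbfox2 with pan-neuronal scaling also lost a call. With pan-neuronal scaling 561 genes (3.3%) were higher and 8279 (48.7%) lower, with 0 of the 10 genes higher and 2 lower (2 called). Calls were then 5 of 8 paralogs, 9 of 16 tissue-regulated splicing factors and 21 of 30 SR and hnRNP proteins. They were 19 of 24 for transport and translational control and 18 of 24 for FMRP-bound mRNAs, against 52% of all genes. Of these list calls only 1, a paralog, was higher. Sign changes under that scaling were Elavl3 (-0.38), Rbfox2 (-0.22), Rbfox3 (-0.15), Nova2 (-0.46), Celf4 (-0.045), Elavl1 (-0.56), Celf3 (-0.47), Fxr1 (-0.53), Hnrnpab (-0.12), Pura (-0.095), Dlg4 (-0.18) and Nlgn3 (-0.037). Elavl1 was at -0.0075 with library size alone. With 1 library left out, Nova2 ran from -0.026 (without unbound replicate 3) to 0.38, Celf3 from -0.15 (without unbound replicate 3) to 0.44 and Celf5 from -0.68 to 0.025 (without unbound replicate 1). With the lane 2 libraries alone, 2 per group, 3835 genes (22.1%) were called, 1297 higher (7.49%) and 2538 lower (14.7%). Of the 10 genes 3 were called (2 higher, 1 lower). Calls were 1 of 8 paralogs, 3 of 15 tissue-regulated splicing factors and 4 of 30 SR and hnRNP proteins. They were 4 of 24 transport genes and 6 of 24 FMRP-bound mRNAs. Fewer libraries entered that fit, and lane 4, with 1 library per group, allows no test of its own.

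Leaving out 1 library gave 5824 to 8587 called genes, 33.4% to 49.8% of those tested. Of these 2489 to 4139 (14.3% to 24% of tested genes) were higher and 3263 to 4448 (18.7% to 25.8%) lower. Of the 10 genes 5 to 8 were called (4 to 6 higher, 1 to 2 lower). The same fits called 2 to 5 paralogs, 4 to 6 tissue-regulated splicing factors and 6 to 9 SR and hnRNP proteins. They called 6 to 10 transport genes and 7 to 14 FMRP-bound mRNAs. The differences in family share (IP minus unbound, percentage points) then ran from 4.47 to 5.68 for Elavl2, -10.4 to -8.78 for Elavl3, 4.04 to 5.37 for Elavl4, -16.2 to -13.1 for Rbfox1, 2.88 to 6.79 for Rbfox2, 9.02 to 10.4 for Rbfox3 and 10.2 to 25.8 for Nova1. For Elavl4 it was 3.08 with basic transcript lengths, an alternative chosen after the data were seen. Under the replicate block, 7 of the 10 genes were called (6 higher, 1 lower), since Rbfox3 passed, and 6 SR and hnRNP proteins rose in place of 3. No other named gene changed its call. With the GC trend removed, Rbfox3 was at 0.30 and, under the block as well, at 0.34, both not called. The cause of these changes was not tested.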
